A study of Mus musculus with 6 samples.

Results

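The genes for the proteins of the cytosolic ribosome were described in control and AMD3100-treated embryonic submandibular glands (eSMGs). Members were taken by gene symbol, as Rpl or Rps followed by a number, together with Rpsa, Rplp0, Rplp1, Rplp2 and Fau, and kinases of Rps6 and symbols marked as pseudogenes were left out. This rule gave 85 of the 23260 genes listed, 34 of the small and 51 of the large subunit, and it used no expression value. The filter on low counts kept 83 of the 85, and a total of 13610 genes. Rpl10l had 1 count, in AMD3100 replicate 3, and Rpl3l had 5 counts in control replicate 3, 14 in AMD3100 replicate 1 and 0 in the 4 other libraries, so neither was tested. Rpl39l was tested on 116 counts over all libraries, whereas every other tested member had at least 194 counts in each library.

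The glands were taken from ICR mouse embryos at embryonic day 14, cultured for 6 h without (control) or with 50 µM AMD3100, a bicyclam that blocks the chemokine receptor CXCR4, and pooled in tubes of up to 10 glands, with 3 tubes per group. The comparison rests on the antagonist alone, with no gene altered, and on whole glands, so that epithelium, mesenchyme, nerves, vessels and attached tissue contribute to each value. The labels do not say whether the tubes of a group came from separate litters, and p-values then measure only the spread between these tubes. The libraries were made from the 3′ ends of mRNA, and the reads counted on each gene symbol are given here as CPM, counts scaled to a common library size after TMM normalization in edgeR.

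A ribosome has a small subunit, which reads the mRNA, and a large subunit, which joins the amino acids and carries the exit tunnel and the stalk that recruits elongation factors. Its proteins are needed in matched amounts, and their mRNAs are among the most abundant in growing tissue. Most of these mRNAs begin with an uninterrupted run of C and T, the 5′ terminal oligopyrimidine (TOP) tract, through which mTOR signalling sets how well they are translated, so an mRNA level does not give the rate of protein synthesis.

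The windows around transcription starts show a run of C and T more often in members than over all genes. RefSeq starts on GRCm38.p6 were found for 64 members, with 76 windows, and a run of at least 8 C or T within 20 bases of the start was found in 42.1% of them, against 16.05% of all 32851 windows. A start at C followed by at least 4 C or T was found in 18.4% against 2.51%. The following windows hold 10 bases before and 20 bases from an annotated start, 5′ to 3′ on the gene's strand, with the longest run of C or T in capitals. Rpl26, Rpl35 and Rpl7a are shown for their place among the lowest p-values, Fau and Rps27 for their low spread, and Rps9, Rpl28 and Rps13 for their distance in replicate 3, all described further on.
Rpl26, chr11:68901556-68901585, plus strand: ggcaaCTTacagaaccggaagtcgcgtgta
Rpl35, chr2:39005112-39005141, minus strand: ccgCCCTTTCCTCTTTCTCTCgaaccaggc
Rpl7a, chr2:26910797-26910826, plus strand: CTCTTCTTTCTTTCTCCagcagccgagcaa
Fau, chr19:6057937-6057966, plus strand: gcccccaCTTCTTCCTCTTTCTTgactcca
Rps27, chr3:90213629-90213658, minus strand: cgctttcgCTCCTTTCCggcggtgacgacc
Rps9, chr7:3704031-3704060, plus strand: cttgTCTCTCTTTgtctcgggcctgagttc
Rpl28, chr7:4792955-4792984, plus strand: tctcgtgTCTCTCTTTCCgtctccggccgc
Rps13, chr7:116334171-116334200, minus strand: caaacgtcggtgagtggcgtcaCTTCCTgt
The run spans the start in 6 of these windows, with Rpl26 and Rps13 as the others, and the annotated start of Rpl26 need not be the one used in eSMGs. CTTCCGG on either strand, in 250 bases before and 50 after the start, was present in 35.5% of the member windows and 8.86% of all windows. GGGCGG was present in 60.5% and 35.7%, and TATAAA in 9.21% and 13.6%. A match describes letters and is not evidence that a factor binds there. Members lay on 20 chromosomes, with 14 on chromosome 7 and 4 on X, and RefSeq lists Rps4l as a transcribed pseudogene.

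Library totals ranged from 9051595 to 14393031 counts. Both replicate 3 libraries stood apart from the 4 others, with muscle marker genes above and several epithelial and mesenchymal markers below them, as given beside the results they touch. Epithelial and mesenchymal markers of the gland were present in every library, and of 36 marker genes of 7 cell types 0 were without counts in all libraries. Since the libraries are of whole glands, fewer cells of a type and less RNA per cell cannot be told apart.

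The first question was whether AMD3100 shifted the share of the mRNA pool that encodes ribosomal proteins. The 85 members together took 5.04% of the counts in control replicate 1 (95% Wilson interval 5.03 to 5.06), 5.08% in control replicate 2 and 9.42% in control replicate 3 (9.41 to 9.44). In AMD3100-treated eSMGs they took 6.75% in replicate 1, 5.23% in replicate 2 and 8.94% in replicate 3 (8.93 to 8.96). The intervals cover counting error only, since PCR copies are not independent. The highest library of each group was replicate 3, and the groups overlapped. The mean was 6.52% ± 2.52 (SD, n = 3) in control and 6.98% ± 1.87 (SD, n = 3) in AMD3100-treated eSMGs, a difference of 0.460 percentage points that was within the spread between replicates (exact two-sided permutation test, p = 0.8, where 0.1 is the smallest p possible). The difference between same-numbered libraries was 1.71, 0.15 and -0.479 points. The difference of the means was 1.91 points without control replicate 3, -0.525 without AMD3100 replicate 3, and -0.275 and -0.259 without control replicates 1 and 2, so its direction depended on single libraries.

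The share depends on what else was counted. Rn45s, the ribosomal RNA precursor, took 32.4%, 27.5% and 20.2% of counts in the control and 16.2%, 32.5% and 22.7% in the AMD3100 libraries. With Rn45s left out, the members took 7.46%, 7.003% and 11.8% in control and 8.06%, 7.75% and 11.6% in AMD3100-treated eSMGs. This brought AMD3100 replicate 1 closer to the other libraries of replicates 1 and 2, left both replicate 3 libraries highest, and gave a difference of 0.371 points (exact permutation test, p = 0.6). Within the members, small-subunit genes took 44.5%, 45.7% and 48.5% of counts in control and 44.3%, 44.0% and 50.3% in AMD3100-treated eSMGs, with a mean of 46.2% in both groups (exact permutation test, p = 1).

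**Figure D1:**
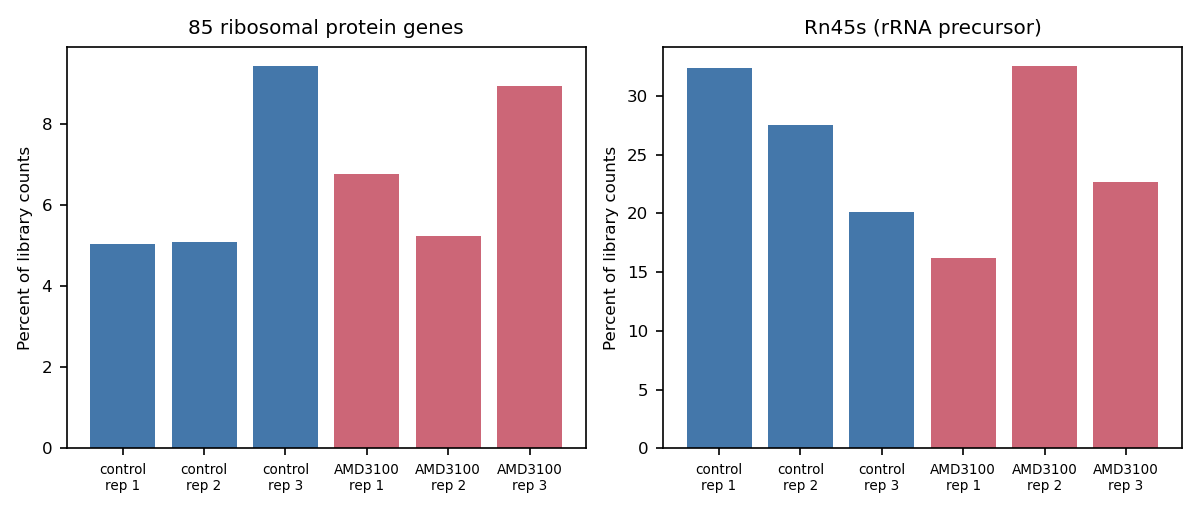
Percent of library counts on the 85 ribosomal protein genes (left) and on Rn45s (right), one bar per library, control in blue and AMD3100 in red. The member share is highest in replicate 3 of each group (9.42% and 8.94%), and the Rn45s share is lowest in AMD3100 replicate 1 (16.2%).

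Gene by gene, 0 of the 83 tested members passed an FC over 1.5 with an unadjusted p under 0.05 in edgeR's quasi-likelihood test, which 1.68% of all tested genes did. An FC over 1.5 in either direction, whatever its p, was seen in 0 members and in 23.1% of all tested genes. The log2 FC of members ran from -0.57 to 0.42, with a median of 0.10 against 0.02 over all genes. It was positive in 57 (68.7%, against 52.2% of all genes) and negative in 26. The split was 55 to 28 with upper quartile scaling and 58 to 25 after quantile normalization, and 42 to 41 when each library was scaled to its summed member counts, which centres the members near 0 by construction. It depended on single libraries, at 71 to 12 without control replicate 3, 32 to 51 without AMD3100 replicate 3, and 40 to 43 and 41 to 42 without control replicates 1 and 2. Small-subunit genes had a median of 0.10 and large-subunit genes of 0.08. The lowest unadjusted p of any member was 0.198, for Rpl7a, and 0 members had an adjusted p under 0.05 in edgeR, as was the case for 0 of all genes (0%). DESeq2 also gave 0 members by either criterion, where 325 and 5 of all 13610 genes passed. Members had a median of 32498 counts over the libraries and all genes 1148, so values of members and of all genes were not matched for depth.

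How small a difference could be seen depended on the model. Without a term for replicate number the 95% interval of the log2 FC reached, at the median, 0.77 to each side of the estimate, and it lay within 1.5-fold for 0 members (0.00735% of all genes) and within 2-fold for 46 (21.3%). The labels number the replicates but do not say that same-numbered tubes shared a litter, day or batch. The numbers were taken as pairs, an assumption on which all block results rest. Its ground was that same-numbered libraries were alike across the members themselves, whereas over all genes only replicate 3 was set apart. Block intervals and p-values of members are therefore not independent of that choice. The same model was fitted with replicate number as a block. The interval then reached 0.26 to each side at the median and lay within 1.5-fold for 76 members (17% of all genes). The 7 others were Rpl12, Rpl26, Rpl29, Rpl35, Rpl39l, Rpl7a and Rplp1. With the block, 7 members (8.43%) had an unadjusted p under 0.05 in edgeR, where 6.66% of all genes did. Of these, 6 were higher (among them Rpl26, Rps20, Rpl35, Rpl5 and Rps26, against 2.79% of all genes) and 1 was lower (Rpl7a, against 3.87%), but 0 passed an FC over 1.5 as well (4.39% of all genes), and the lowest adjusted p was 0.416 in edgeR (0.022% of all genes were under 0.05). These 7 were singled out by that p.

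**Figure D2:**
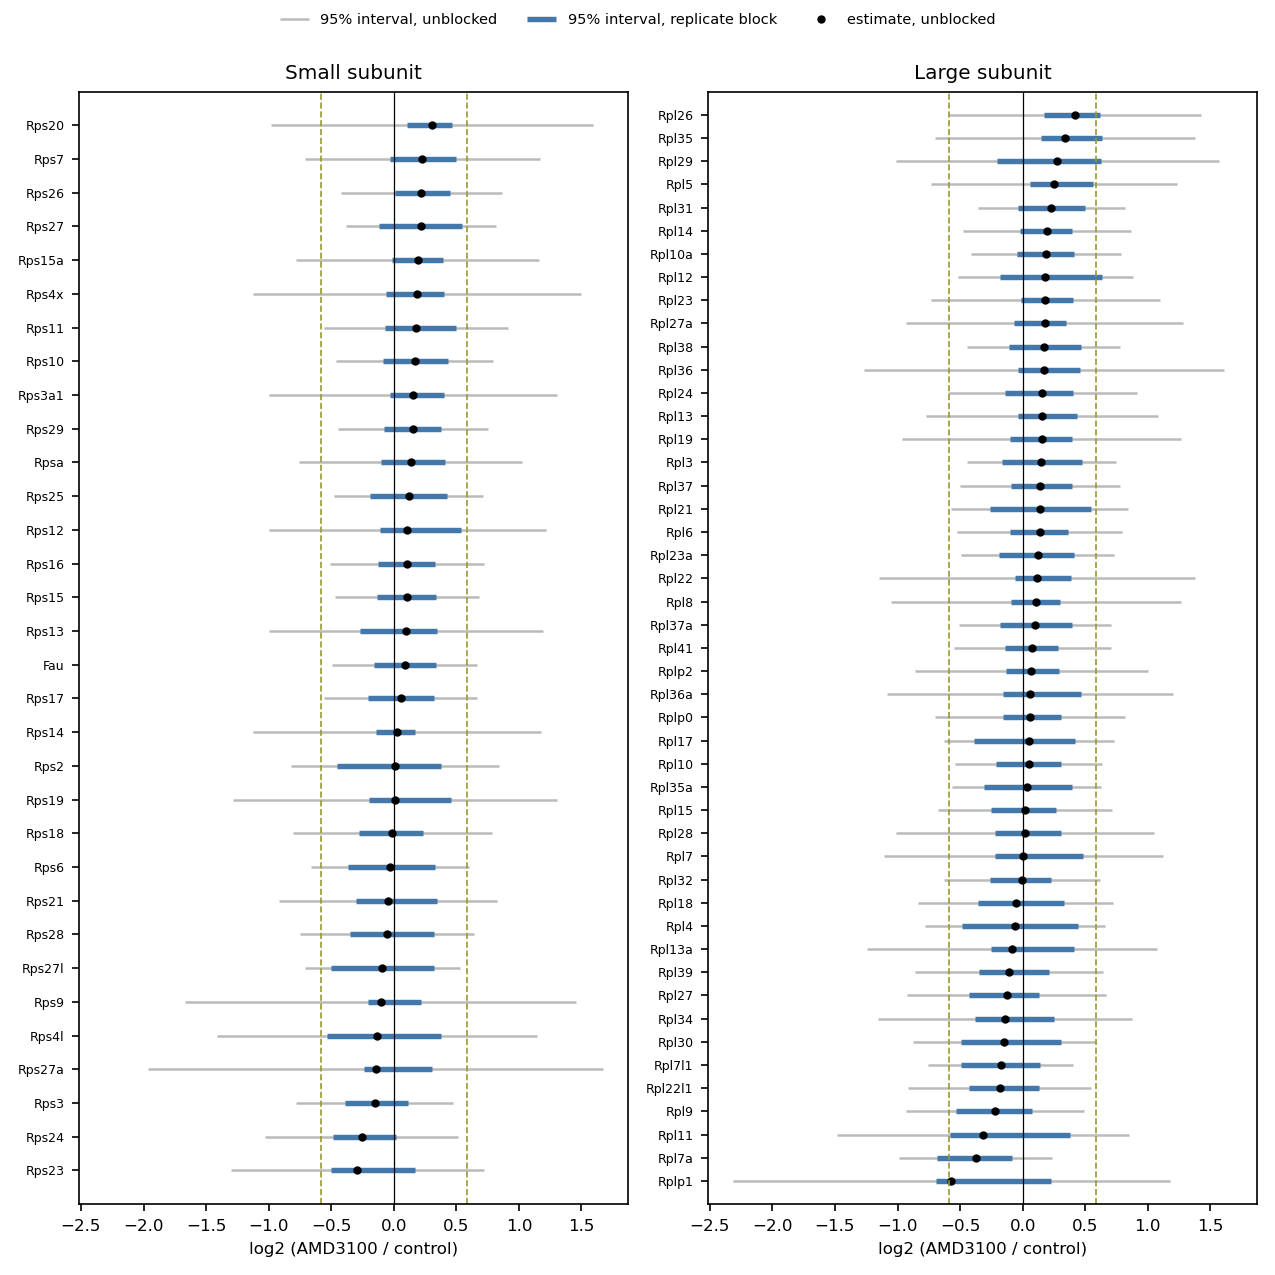
Log2 FC of AMD3100 over control for 79 tested members, small subunit left and large subunit right, with the 95% interval without a block (grey) and with the replicate block (blue), and dashed lines at a 1.5-fold difference. The grey intervals drawn all include 0, and the blue intervals lie inside the dashed lines for all but 6 of the genes drawn.

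The large-subunit genes with the lowest p-values illustrate the size of these differences. Rpl7a, a large-subunit protein of the L7Ae family, stood at 253, 263 and 247 CPM in control replicates 1 to 3 and at 192, 230 and 165 CPM in AMD3100 replicates 1 to 3. The 3 AMD3100 libraries lay under the 3 control libraries, and the log2 FC was -0.38 (SE 0.27, unadjusted p = 0.198 in edgeR) and -0.39 with the block (95% interval -0.69 to -0.09, adjusted p = 0.687 in edgeR). Of its simulated 3′ reads, described below, 90.9% also matched other places in the genome.

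Rpl26, which is known for binding the p53 mRNA besides its place in the large subunit, had 942, 971 and 1973 CPM in control and 1088, 1387 and 2726 CPM in AMD3100-treated eSMGs. It was higher with AMD3100 in each same-numbered pair, but control replicate 3 stood above AMD3100 replicates 1 and 2 and the groups overlapped. Its log2 FC was 0.42 (SE 0.44) and with the block 0.40 (95% interval 0.17 to 0.62, adjusted p = 0.416 in edgeR). Rpl35, which lies at the exit of the tunnel, had a like pattern, with 456, 484 and 1143 CPM in control and 652, 651 and 1335 CPM in AMD3100-treated eSMGs. Its log2 FC with the block was 0.39 (95% interval 0.15 to 0.63, adjusted p = 0.486 in edgeR).

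Rpl31, another protein of the tunnel exit, was the only tested member whose AMD3100 libraries all stood above the control libraries, which 3.28% of all genes did. Control libraries held 367, 354 and 408 CPM and AMD3100 libraries 474, 428 and 419 CPM, a log2 FC of 0.23 (SE 0.26, adjusted p = 0.793 in edgeR with the block). Rpl7l1, a paralogue of Rpl7, was besides Rpl7a the other member with AMD3100 libraries all below control (4.17% of all genes), at 123, 121 and 131 against 103, 114 and 115 CPM (log2 FC -0.18, SE 0.26). Groups thus did not overlap for 3 members, or 3.61%, where they did not overlap for 7.44% of all tested genes.

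Of the small subunit, Rps26, which lies at the mRNA exit, had 828, 855 and 1142 CPM in control and 1023, 991 and 1277 CPM in AMD3100-treated eSMGs, so that AMD3100 was higher in every pair while the groups overlapped (log2 FC 0.22, SE 0.28). Rps27, a zinc-binding protein, had 183, 164 and 148 CPM in control and 175, 191 and 209 CPM in AMD3100-treated eSMGs (log2 FC 0.21, SE 0.26). Rps24 went the other way, with 517, 468 and 843 against 478, 403 and 651 CPM (log2 FC -0.26, SE 0.34). Rpl9, near the base of the stalk, was also lower in every pair, at 159, 158 and 108 CPM in control and 139, 137 and 88.5 CPM in AMD3100-treated eSMGs (log2 FC -0.22, SE 0.31). In these 4 genes the unadjusted p in edgeR lay above 0.05 without the block, and with it only that of Rps26 lay under (adjusted p = 0.732 in edgeR), and the difference within pairs was smaller than that between replicates 2 and 3 of the control group in Rps26, Rps24 and Rpl9.

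Over the members, 67 were higher in AMD3100 in pair 1 and 71 in pair 2, whereas 39 were higher and 44 lower in pair 3. The median log2 difference was 0.16, 0.15 and -0.02, against 0.02, -0.01 and 0.02 over all genes. Of 61 members that were higher in both pairs 1 and 2, 30 were lower in pair 3. These counts by pair were not made over all genes. All 3 pairs had the same direction for 31 higher and 6 lower members, against 15.9% and 14.6% of all tested genes. With replicates 1 and 2 only, a choice made after seeing the data, the median was 0.16 and 14 members had an unadjusted p under 0.05 in edgeR (5.72% of all genes), all 14 higher and 0 with an FC over 1.5. The lowest adjusted p was then 0.719, for Rpl35.

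The members differed far more between replicate 3 and the other replicates than between groups. In replicates 1 and 2 the spread was small, with a median within-group SD of log2 CPM of 0.08 for members and 0.40 for all genes, and 52 members were under 0.1. With replicate 3 included the median SD was 0.41 for members and 0.63 for all genes, and 38 members were over 0.5. Both replicate 3 libraries stood above the 4 others for 53 members (63.9%, against 23.1% of all genes) and below them for 16 (19.3%, against 21.1%), which left 14 that did neither. The median log2 difference of replicate 3 from replicates 1 and 2 was 0.74 in control and 0.45 in AMD3100-treated eSMGs for members. Over all genes it was 0.07 and 0.06. Without regard to sign, the median was 0.78 in control and 0.64 in AMD3100-treated eSMGs for members. Over all genes it was 0.74 and 0.71, so members differed from all genes in the shared upward direction and little in size.

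The same members stood apart in both groups. Across the 83 members, the difference of replicate 3 had the same sign in control and AMD3100 for 74. Across all 13610 genes it did so for 10278, so most genes shared this agreement. The Pearson correlation was 0.94 and the Spearman correlation 0.93 for members, against 0.58 and 0.62 for all genes. These values were not matched for depth, with a median of 32498 counts for members and 1148 for all genes. The groups share no library, but members are not independent replicates and the libraries were scaled together, so these are descriptions. Of the 34 small-subunit genes 22 stood above and 4 below, and of the 49 large-subunit genes 31 above and 12 below. More than 2-fold in both groups was seen for 20 members and less than 0.5-fold for 4, which was not counted over all genes.

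**Figure D3:**
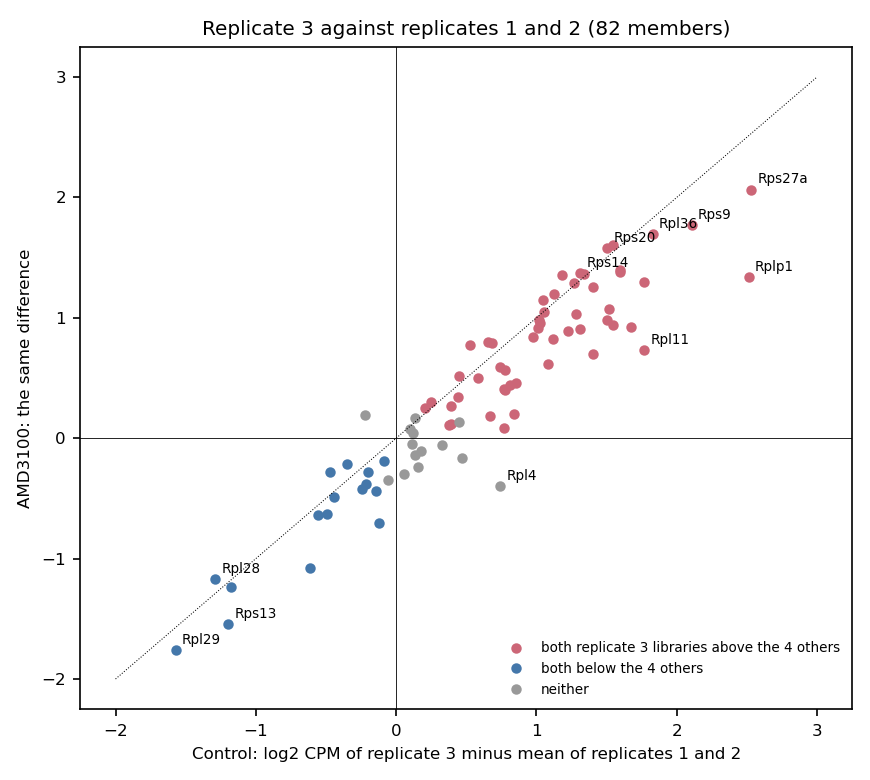
Log2 CPM of replicate 3 minus the mean of replicates 1 and 2, control on the horizontal and AMD3100 on the vertical axis, one point for each of 82 members (Rpl39l is not drawn), with a dotted line of equality. Most points lie near the line and above 0, with Rps27a and Rps9 far up, and Rpl29, Rpl28 and Rps13 far down in both groups.

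Rps14, Rps9, Rps20, Rpl22 and Rplp1 were named for their mean CPM over all 6 libraries, to which their high values in replicate 3 contributed, and each stood more than 2-fold higher in replicate 3 of both groups. Rpl41, another abundant mRNA, had 2058, 1877 and 1664 CPM in control and 2094, 2209 and 1608 CPM in AMD3100-treated eSMGs and stood lowest in replicate 3. Rps14, a protein of the decoding platform known from the human 5q- syndrome, had 4745, 4369 and 11295 CPM in control and 4528, 4540 and 11719 CPM in AMD3100-treated eSMGs. Replicate 3 was thus 2.48-fold and 2.58-fold above replicates 1 and 2, while the log2 FC with AMD3100 was 0.03 (SE 0.51), and 0.01 with the block (95% interval -0.14 to 0.17). Rps9, of the mRNA entry site, had 1818, 1831 and 7860 CPM in control and 2022, 1936 and 6747 CPM in AMD3100-treated eSMGs, a 4.31-fold and 3.41-fold difference of replicate 3. Its block interval for AMD3100 ran from -0.21 to 0.21.

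Rps20, of the head of the small subunit, held 1882, 1829 and 5263 CPM in control and 2335, 2122 and 6640 CPM in AMD3100-treated eSMGs. AMD3100 was higher in every pair, with a log2 FC of 0.29 with the block (95% interval 0.11 to 0.47, adjusted p = 0.484 in edgeR), and replicate 3 was 2.84-fold and 2.98-fold above the others. Rpl22, which is not needed for translation in general but has a role in lymphocyte development, had 1931, 1727 and 5526 against 1982, 2324 and 5647 CPM. In Rps14, Rps9, Rps20 and Rpl22 the values of replicates 1 and 2 lay close together and far under those of replicate 3.

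The P stalk, to which translation GTPases bind, is made of Rplp0 and dimers of Rplp1 and Rplp2. Rplp0 held 878, 1005 and 1570 CPM in control and 1044, 1002 and 1543 CPM in AMD3100-treated eSMGs, and Rplp2 1324, 1252 and 2622 against 1301, 1471 and 2685 CPM. The log2 FC was 0.06 (SE 0.34) and 0.07 (SE 0.41). Rplp1 differed from them in that replicates 1 and 2 also stood apart, with 2067, 773 and 7215 CPM in control and 2378, 836 and 3558 CPM in AMD3100-treated eSMGs. Its log2 FC of -0.57 (SE 0.77) was the lowest of the members and was 0.68 without control replicate 3, and the block interval ran from -0.69 to 0.23.

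Rps27a and Fau are made as fusions, with ubiquitin in the case of Rps27a and with a ubiquitin-like protein in the case of Fau. Rps27a had 444, 465 and 2628 CPM in control and 525, 509 and 2165 CPM in AMD3100-treated eSMGs, a 5.78-fold and 4.19-fold difference of replicate 3. Fau held 410, 451 and 468 CPM in control and 458, 474 and 480 CPM in AMD3100-treated eSMGs, so that all 6 libraries lay close together (log2 FC 0.09, SE 0.26, 95% interval with the block -0.16 to 0.34). Rpsa, which is also known as the laminin receptor precursor, had 316, 315 and 621 against 385, 340 and 648 CPM.

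**Figure D4:**
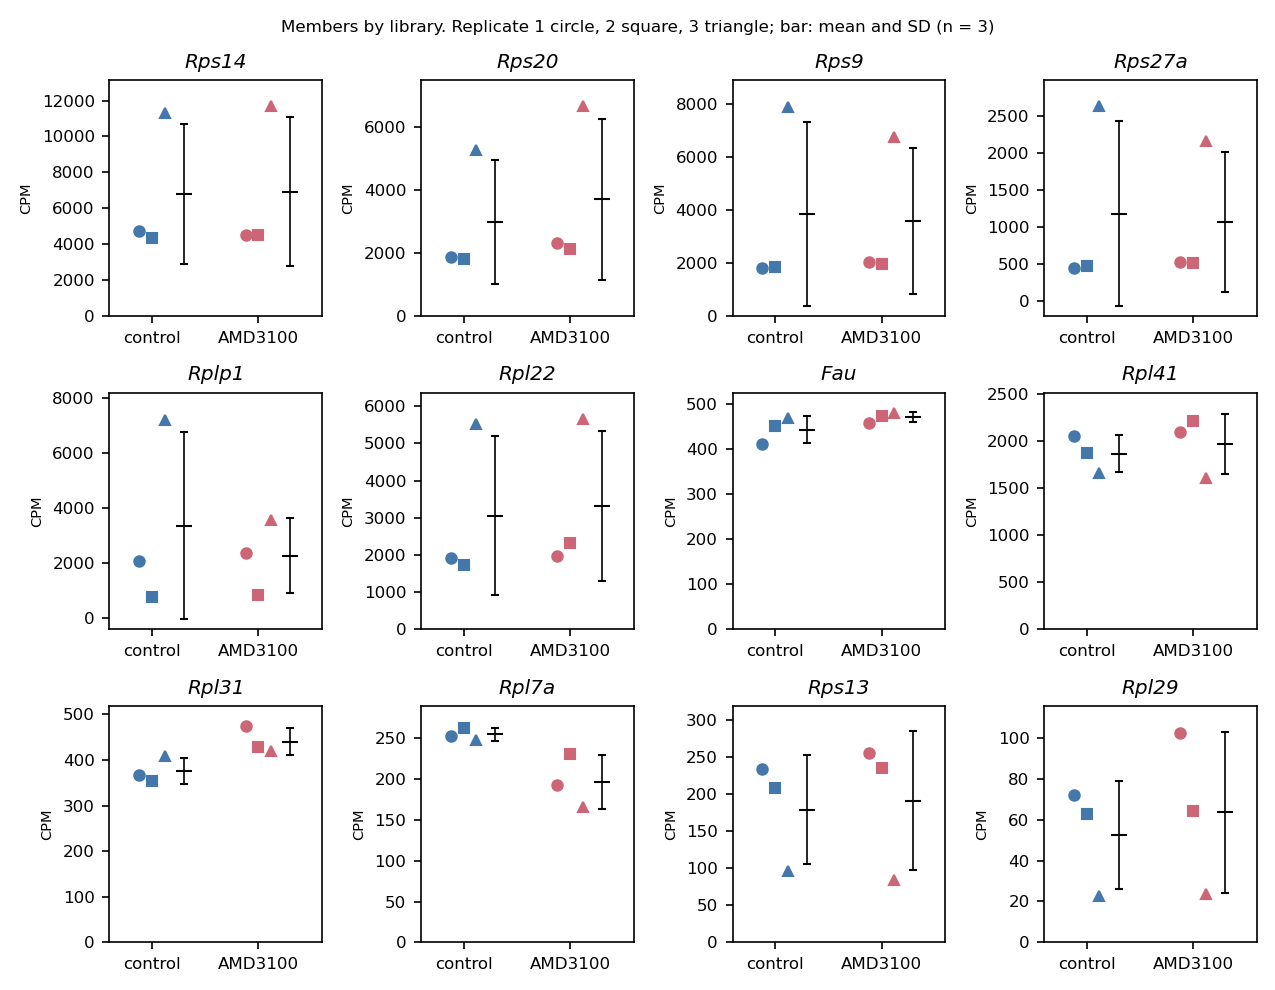
CPM of 12 members in each library, control in blue and AMD3100 in red, with circles, squares and triangles for replicates 1, 2 and 3 and with the mean and SD (n = 3) beside them. Axes include 0 and differ between panels. Replicate 3 is highest in both groups for Rps14, Rps20, Rps9, Rps27a, Rplp1 and Rpl22 and lowest for Rps13 and Rpl29, while AMD3100 and control separate for Rpl31 and Rpl7a by less than replicates do in the first panels.

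A few members stood on the other side, and were picked out after their values were seen. Rpl29, a heparin-binding protein of the large subunit, had 72.0, 63.0 and 22.5 CPM in control and 103, 64.3 and 23.8 CPM in AMD3100-treated eSMGs. For Rpl28 replicate 3 was at 0.410-fold and 0.444-fold of the others, and for Rps13 at 0.436-fold and 0.343-fold. A further 12 members had an SD of log2 CPM under 0.15 within groups, among them Fau, Rps15 and Rpl31. Rps15 stood at 649.7, 661 and 709 CPM in control and at 718, 744 and 709 CPM in AMD3100-treated eSMGs. Genes of the same complex thus included some at one level in all libraries, some higher and some lower in replicate 3.

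Members known for roles outside the ribosome, or used as reference genes, showed the same range. Rps6, the substrate of S6 kinase in mTOR signalling, had 277, 278 and 384 CPM in control and 300, 336 and 284 CPM in AMD3100-treated eSMGs (log2 FC -0.03, SE 0.28). Rpl5 and Rpl11 bind Mdm2 when ribosome assembly is disturbed. Rpl5 had 502, 545 and 1222 against 698, 704 and 1298 CPM, with AMD3100 higher in every pair (block log2 FC 0.31, 95% interval 0.05 to 0.56, adjusted p = 0.703 in edgeR). Rpl11 had 92.7, 80.6 and 295 against 106, 98.6 and 170 CPM, with AMD3100 higher in pairs 1 and 2 and lower in pair 3.

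Rps19, the gene most often mutated in Diamond-Blackfan anaemia, had 157, 129 and 485 CPM in control and 174, 175 and 427 CPM in AMD3100-treated eSMGs (log2 FC 0.01, SE 0.57). Rpl38, whose loss alters the axial skeleton in mice, had 200, 204 and 265 against 238, 250 and 265 CPM (log2 FC 0.17, SE 0.27). Rpl32, a common reference gene in qPCR, had 1086, 1149 and 1011 against 1215, 1149 and 870 CPM, and its mean differed little between groups, at 1082 ± 69.1 and 1078 ± 183 CPM (SD, n = 3). The groups overlapped for all of these genes.

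Some members have a close relative, and the balance within such pairs was compared as the percent of their summed CPM. Rpl22l1 took 15.8% ± 4.07 of Rpl22l1 and Rpl22 in control and 13.3% ± 4.14 in AMD3100-treated eSMGs (SD, n = 3). Rps27l, a p53 target, took 34.5% ± 3.84 and 29.9% ± 3.64 of itself and Rps27, and Rpl7l1 took 39.7% ± 13.1 and 34.3% ± 7.48 of itself and Rpl7. Over 9 pairs the exact permutation p was at least 0.3, with 0.1 as the smallest possible, and 1 after Benjamini-Hochberg adjustment. Rpl39l, known mainly from the testis, stayed under 1% of the sum with Rpl39, and Rps4l took 21.0% and 18.3% of the sum with Rps4x. For Rpl39, Rpl3, Rpl10, Rpl7, Rpl36a and Rps4x themselves the log2 FC lay between -0.11 and 0.19 with overlapping groups.

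Ribosomal protein genes have many processed copies in the genome, and 3′ reads of 50 bases may match several of them. Reads of this length were simulated from the last 300 bases of 80 matched members and aligned to NCBIM37. Reads with a further match that scored no more than a mismatch worse counted as shared. Among these were reads that scored better elsewhere than in their own gene. They made up 18.2% of the reads of the median member, 54.5% at most, and 0% of those of the median gene. The median member shared 81.8% of its reads and the median gene 0% of them (12202 genes), with 26 members sharing all and 13 sharing none. How the deposited counts treated such reads is not given in the sources used here, so the values of most members may include reads of copies or lack reads given to them. Of the 13 members without shared reads in the simulation, which include Rps20, Rpl5, Rpl31 and Rpsa, 8 stood above and 3 below in both replicate 3 libraries. Their log2 FC with AMD3100 lay between -0.41 (Rpl39l) and 0.31 (Rps20), with a median of 0.18. Across the 80 members the percent of shared reads had a Spearman correlation of -0.09 with the replicate 3 difference in control and -0.07 in AMD3100. The simulated reads came from the end of a single annotated transcript per gene. Members without shared reads had annotated 3′ untranslated regions of 307 (Rpl6) to 3272 bases (Rps15a), against a median of 67 over the 80. Where an mRNA ends before its annotated end, the simulated reads miss the bases sequenced. The group without shared reads and the correlations cannot then tell how reads were shared, and the ends used were not tested.

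**Figure D5:**
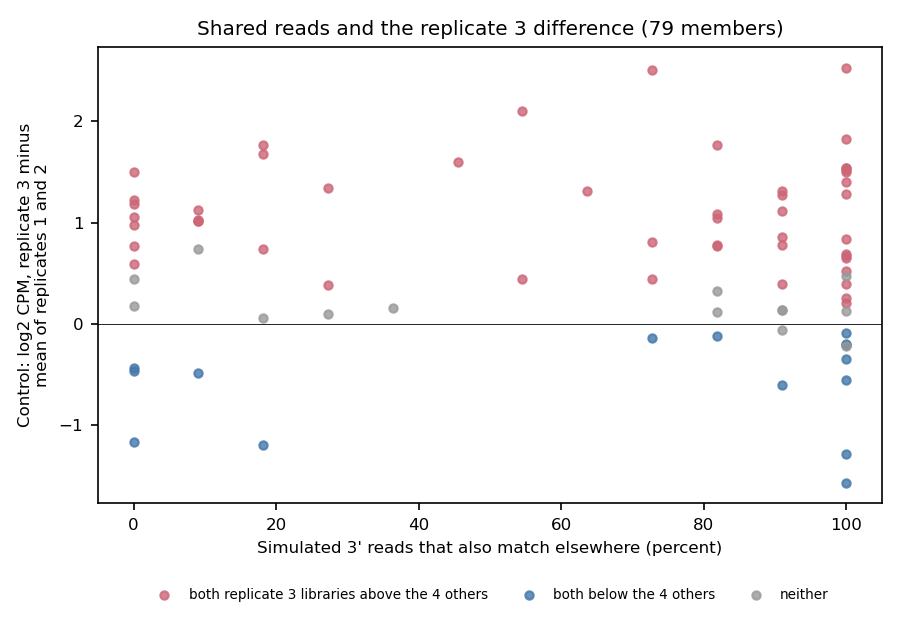
Percent of simulated 3′ reads that also match elsewhere (horizontal) against the log2 difference of replicate 3 from replicates 1 and 2 in control (vertical), for 79 members, coloured by whether both replicate 3 libraries lie above or below the 4 others. Members above and below are found at 0% and at 100% alike, with a Spearman correlation of -0.09 over 80 members including Rpl39l, which is not drawn.

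Other features of the genes were set beside these differences in the same descriptive way. Members with a run of at least 8 C or T near a start (31 of those tested) had a median log2 FC of 0.07, and the 31 without had 0.10. Both replicate 3 libraries stood above for 20 of the former and 21 of the latter, and below for 2 and 7. The GC content of the last 300 bases had a Spearman correlation of -0.05 with the replicate 3 difference in control and 0.03 in AMD3100 across the 80 members.

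The replicate 3 libraries also differed in marker genes of other cell types. Over all tested genes, both stood above the 4 others for 23.1% and below them for 21.1%. Of 6 muscle markers 5 stood above in both, and their summed level was 132, 131 and 923 CPM in control and 96.3, 73.8 and 1080 CPM in AMD3100-treated eSMGs, with Ckm at 0 in 2 of the replicate 1 and 2 libraries. Of 6 mesenchymal markers 4 stood below, at 3534, 3733 and 1291 CPM in control and 4266, 3356 and 1152 CPM in AMD3100-treated eSMGs, and of 8 epithelial markers 5 stood below. The epithelial sum did not follow that count, with 1895, 1969 and 1207 CPM in control and 2757, 1854 and 2935 CPM in AMD3100-treated eSMGs, where Krt15 at 2472 CPM made AMD3100 replicate 3 the highest library. The part of these differences in tissue content in the levels of Rps9, Rps27a and the other members was not tested. The mitochondrial ribosomal proteins, which serve another ribosome, had 30 of 77 above and 10 below, and whether this share differs from that of the members was not tested.

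The other genes of ribosome production and use were read in the same test. Among 34 translation factors 1 was lower by an FC over 1.5 with an unadjusted p under 0.05 in edgeR, Eif2s3x (log2 FC -1.05), 0 were higher, and the median log2 FC was 0.05. Of 42 genes for ribosome assembly and rRNA processing 2 were lower and 0 higher (2 and 1 with the block), with a median of -0.00. One was Gar1, a protein of the box H/ACA particles that guide pseudouridylation of rRNA, which had 56.7, 60.8 and 46.2 CPM in control and 14.2, 29.2 and 22.2 CPM in AMD3100-treated eSMGs, groups that did not overlap (log2 FC -1.32, SE 0.35). The other was Nob1, which cleaves the precursor of the small-subunit rRNA (log2 FC -1.05). Of 15 RNA polymerase I genes and 15 genes between mTOR and TOP translation 0 passed, with medians of -0.10 and -0.15.

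Of 15 ribosome-associated and other TOP genes 2 were lower, Snhg6 (log2 FC -2.31) and Hnrnpa1 (log2 FC -1.22), and 0 were higher, and with the block Snhg8 was lower as well (block log2 FC -1.70, adjusted p = 0.229 in edgeR). Of 77 mitochondrial ribosomal proteins 3 were lower (4 with the block), Mrpl9, Mrps28 and Mrpl27, and 0 higher. Mrps28 rested on few counts, with 31, 48 and 63 in the control and 2, 10 and 8 in the AMD3100 libraries. Of 15 p53 targets 1 was lower, Gadd45a (log2 FC -1.48), a call that was lost with the block, where 0 of the 15 passed. In the same test 1.28% of all genes were lower and 0.397% higher, and 0 genes of these lists had an adjusted p under 0.05 in edgeR. With the block, 4.39% of all genes passed in either direction. Whether the lists differ from the members, with 0 calls of 83, was not tested.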

How the data were processed

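Total RNA of eSMGs was made into 3′ mRNA libraries (QuantSeq) and sequenced as single reads of 50 bases in 6 samples. The authors deposited 1 file of raw counts per library, by gene symbol, and their processing notes name Bowtie2, edgeR and mm10. The versions, the annotation, the strand setting and the handling of reads with several matches are not given in the sources used here, and the study's methods name quantile normalization. Of 23282 lines, 22 repeats of a symbol were left out. Members, gene lists and tests were chosen with earlier results of these data known.

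Counts were analysed in R 4.3.3 with edgeR 4.0.16 (TMM, filterByExpr, glmQLFit, glmQLFTest, Benjamini-Hochberg adjustment over 13610 genes), with treatment as the only term. Thresholds were an FC over 1.5 with an unadjusted p under 0.05, and an adjusted p under 0.05. The common biological coefficient of variation was 0.579. Replicate numbers come from the labels. Deviations of same-numbered libraries from their group means correlated across genes at 0.185, 0.171 and 0.584. Control replicate 2 and AMD3100 replicate 1 correlated at 0.198, so over all genes only replicate 3 was set apart. Across members the same-numbered values were 0.917, 0.891 and 0.943, and the highest other value was 0.415. Pairing was assumed on this ground, which for replicates 1 and 2 rests on the same members that were then tested. With the block the biological coefficient of variation was 0.446. Replicates of a group differed beyond sampling noise in every pair (chi-square per degree of freedom of at least 34.3). The fits were tested before use on simulated data with less spread between replicates than here and no replicate 3 difference. That test therefore does not show how the fits behave at the spread of these libraries. Named were the 5 members of lowest p in each direction, the 5 of highest mean CPM, the P stalk, Rpsa, Fau, Rps27a, paralogue pairs and 7 genes known for other roles. Others were chosen after their values were seen, and some genes are not reported here. A 3′ count is not scaled by length, so levels are not compared between genes. DESeq2 1.42.0, limma 3.58.1 and the alternatives described at the end were also run. Simulated reads were aligned with minimap2 2.31-r1302 to NCBIM37 with GENCODE vM1, which is not the build of the counts and served for no coordinate. Sequences and positions are from RefSeq on GRCm38.p6, the mm10 assembly.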

Additional observations from a re-analysis of the deposited data

How the results depend on the processing

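Under DESeq2, limma-voom after quantile normalization, upper quartile scaling, library sizes set to summed member counts, 2 other filters on low counts, robust estimation, the replicate block and Rn45s left out, 0 members passed both thresholds and 0 had an adjusted p under 0.05. All genes passing both thresholds numbered 598 with the block against 228 without, and from 155 (summed member counts) to 325 (DESeq2) in the other settings. They numbered 613 and 564 with replicates 1 and 2 only and with a term for replicate 3, both chosen after seeing the data. With Rn45s or mitochondrial genes left out of the share the difference was 0.371 points, and no symbol of the mitochondrial genome was found. The replicate block moved members with an unadjusted p under 0.05 from 0 to 7, and all genes with an adjusted p under 0.05 from 0 to 3. Among the other gene lists it lost Gadd45a and added Snhg8, 1 higher gene of ribosome assembly and 1 lower mitochondrial ribosomal protein. In the marker lists it added Krt15 of the epithelium, higher (block log2 FC 0.62), and Myog of muscle, lower (block log2 FC -1.16). Depth limited Rpl39l, and the spread between replicates the other members.

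Leaving out 1 library moved the median log2 FC of members between -0.16 (without AMD3100 replicate 3) and 0.32 (without control replicate 3). The members passing both thresholds numbered 0 to 1, with Rpl35 passing without control replicate 3. In that setting 547 of all 14256 genes tested passed (3.84%). The difference in the member share ran from -0.525 to 1.91 points and was -0.275 and -0.259 without control replicates 1 and 2. Of the genes named, the direction was reversed in Rps9 and Rps27a by the block (0.0045 and 0.031), by a term for replicate 3 (0.0048 and 0.031) and by limma-voom (0.021 and 0.027). Upper quartile scaling reversed Rpl7 (-0.012) and Rps19 (-0.011). Summed member counts as library sizes, which centre the members near 0 and so say nothing of single genes, reversed Rps14 (-0.060), Rplp0 (-0.023), Rplp2 (-0.0062), Fau (-0.018) and Rpl10 (-0.059). With replicates 1 and 2 only, values were 0.18 for Rplp1, -0.013 for Rps14, 0.11 for Rps9, 0.18 for Rps27a, 0.043 for Rpl39, 0.029 for Rps27l, 0.19 for Rps6, 0.24 for Rpl11 and 0.075 for Rpl32, all reversed.

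Leaving out 1 library reversed 25 of the named genes. Rpl26 ran from -0.083 to 0.87, Rpl35 from -0.11 to 0.92, Rps20 from -0.44 to 1.01, Rpl5 from -0.13 to 0.79 and Rps24 from -0.48 to 0.060. Rps14 ran from -0.60 to 0.62, Rps9 from -0.98 to 0.98, Rps27a from -1.21 to 1.25, Rpl22 from -0.53 to 0.87 and Rpl22l1 from -0.35 to 0.13. Rplp0 ran from -0.19 to 0.35, Rplp1 from -1.08 to 0.68, Rplp2 from -0.34 to 0.51, Rpsa from -0.22 to 0.55 and Rps19 from -0.58 to 0.87. Rpl7 ran from -0.40 to 0.73, Rpl36a from -0.41 to 0.77, Rps4x from -0.58 to 0.91, Rps4l from -0.76 to 0.60 and Rpl39 from -0.29 to 0.22. Rpl39l ran from -2.16 to 1.27, Rpl11 from -0.63 to 0.54, Rps6 from -0.12 to 0.15, Rpl32 from -0.10 to 0.12 and Rpl10 from -0.0037 to 0.096. None of these values had an adjusted p under 0.05 in edgeR.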

Other observations

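Copies of ribosomal protein genes that the symbol rule leaves out, and that have counts of their own, stood apart in the same libraries. Rplp2-ps1 had 2480, 2588 and 7497 CPM in control and 2467, 3026 and 7108 CPM in AMD3100-treated eSMGs, so that both replicate 3 libraries were above the 4 others, as they were for Rplp2 itself. Rpl31-ps12 had 74.8, 88.4 and 334 against 125, 130 and 324 CPM, whereas Rpl31 had no such difference. Rpl36al, an intronless relative of Rpl36a, had 186, 182 and 606 against 199, 208 and 555 CPM. Where a member and its copy share sequence, their reads cannot be told apart.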
